A study of Drosophila melanogaster with 6 samples.

Results

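Small nuclear RNA (snRNA), small nucleolar RNA (snoRNA) and small Cajal body RNA (scaRNA) genes, together with the Uhg genes that host some of them, were examined in nuclei of the Drosophila melanogaster eye imaginal disc. The members were chosen by name and by level: every gene whose symbol starts with snoRNA, scaRNA or snRNA, or with Uhg and a number, and whose raw count averaged at least 10 over the 6 libraries. Of 17433 genes in the count table, 327 carried such a name and 182 of them met the count minimum. The choice rested on the mean over both genotypes, so the level of a member is no result, but its difference between genotypes was not used. A gene could still meet the minimum mainly through either genotype alone. Just inside the minimum stood snoRNA:Me28S-G764 with a mean of 10 counts and snoRNA:Me28S-A2634b with 10.2, and just outside it stood snoRNA:Me18S-C419 with 9.33 and snoRNA:U49:66Db with 9.

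The study compared 3 samples of GMR>Rh-1G69D discs with 3 samples of WT discs, all from larvae late in the third instar. Both genotypes carried GMR-GAL4 and uas-EGFP::Msp300-KASH, so that cells behind the morphogenetic furrow had an EGFP tag on the nuclear envelope, and the GMR>Rh-1G69D larvae also carried uas-Rh-1G69D, a Rhodopsin-1 that misfolds in the endoplasmic reticulum. The GMR promoter drives expression in several cell types of the eye disc, and "WT" here means the driver and the tag without the mutant rhodopsin. Each sample pooled the discs of about 100 larvae, from which tagged nuclei were pulled down with anti-EGFP. Total RNA was purified with an RNeasy MinElute cleanup kit and sequenced after depletion of ribosomal RNA. The small RNA members had a median length of 139 bases (49 to 444), and the recovery of such short RNA was not measured.

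The libraries held 21773452 to 30884519 counts, of which ribosomal RNA genes took 7.70% to 20.5%. The targeted gene ninaE, which encodes Rhodopsin-1, had 146, 175 and 220 counts per 1000000 counts (CPM) in GMR>Rh-1G69D nuclei, against 3.21, 36.9 and 2.22 CPM in WT nuclei, so WT replicate 2 stood above the other WT libraries. WT replicate 3 stood apart in fat body genes, whose 3 listed markers summed to 6.48 to 43.2 CPM in GMR>Rh-1G69D nuclei and reached 542 CPM there, against 19.9 CPM in the lowest WT library. Of 8 markers of eye disc cells behind the furrow, all were detected in every library and 6 fell in GMR>Rh-1G69D nuclei, with summed levels of 1517 to 1739 CPM in GMR>Rh-1G69D and 2479 to 3985 CPM in WT. The 3 hemocyte markers summed to 165 to 188 CPM in GMR>Rh-1G69D and 76.6 to 86.7 CPM in WT. Most of the sum was Hml, which rose, with means of 141 CPM in GMR>Rh-1G69D and 58.2 CPM in WT. The marker srp was not called (edgeR adjusted p = 0.12), and NimC1 had means of 3.27 CPM in GMR>Rh-1G69D and 3.28 CPM in WT. In such pooled nuclei, fewer cells of a type and less RNA per cell cannot be told apart.

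Nearly all of these RNAs act as parts of ribonucleoproteins. Box C/D snoRNAs guide the methylation of ribose in ribosomal RNA and box H/ACA snoRNAs guide the conversion of uridine to pseudouridine, while scaRNAs guide the same changes on spliceosomal snRNAs in Cajal bodies. Fly snoRNA symbols that hold Me or Psi name the modified position. In flies most snoRNAs lie in introns and are trimmed out of the spliced intron of a host gene, which may encode a protein or, as in the Uhg genes, little beyond the RNA that carries the snoRNAs. The spliceosomal snRNAs and 7SK have promoters of their own. 7SK holds the elongation kinase P-TEFb in an inactive complex, and U7 acts in the 3' end formation of histone mRNAs.

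The share of genes that met the minimum differed among classes. Of the Psi-named snoRNAs, 89 of 109 did, and of the Me-named snoRNAs 39 of 95. The scaRNAs gave 10 of 15, the remaining snoRNAs 31 of 69 and the Uhg genes 7 of 7. Of 28 spliceosomal snRNA genes only 4 met it (U4atac, U12, a U4 gene at 38AB and a U1 gene at 95C), and the others averaged at most 8.50 counts. The snRNAs with other roles gave 2 of 4, which were 7SK and U7. Fly U1 genes are near-identical copies of each other, and the annotation lists a 7SKb gene besides the one matched to 7SK here. The treatment of reads that map to several places is not given in the sources used here, so the level of one copy is uncertain. The same holds for any other member that has copies, such as a single U4 gene. The Psi-named members had a median length of 140 bases and the Me-named members one of 87 bases.

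Coordinates are those of the BDGP6.54 annotation, which shares its coordinates with the dm6 build that the study used. Of the 182 members, 163 matched a gene in it, 159 by symbol and 4 by an older name, and 15 of the 19 without a match were Me-named. By chromosome arm, 59 lay on 2R, 36 on 3R, 30 on 3L, 21 on X, 16 on 2L and 1 on chromosome 4. Of the 150 matched snoRNA and scaRNA members, 140 lay in an intron of a gene on the same strand, in 59 host genes. RNA from nuclei includes unspliced host transcripts, whose intron reads fall on the same bases as the snoRNA, and the counts do not separate them.

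The question here was whether these RNAs differed between GMR>Rh-1G69D and WT nuclei. None of the 176 members that passed the filter on low counts was called higher or lower by edgeR's quasi-likelihood test at an adjusted p under 0.05 over all genes. Over all 11818 tested genes, 1.24% were called higher and 3.72% lower. At an unadjusted p under 0.05, 2 members were higher and 5 lower, or 1.14% and 2.84% of those tested, beside 11.0% and 12.8% of all genes. DESeq2 called no member higher, where it called 3.87% of all genes, and called 3 of the 182 members lower (snoRNA:Me18S-G962, snoRNA:Tudor-SN-a and snoRNA:lola-b), where it called 7.41% of all genes. In 7 members all GMR>Rh-1G69D libraries lay above all WT libraries and in 9 all lay below, which is 3.98% and 5.11% of the tested members, against 13.6% and 14.6% of all genes.

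The members' log2 fold changes (GMR>Rh-1G69D over WT) had a median of -0.01, beside 0.04 over all genes, with 87 above and 89 below 0. Without GMR>Rh-1G69D replicate 1 the median was -0.44. Their standard error had a median of 0.73, beside 0.34 over all genes. The 95% interval held both -1 and 1 for 101 members, so for these neither a 2-fold higher nor a 2-fold lower level was out of reach of the data. Only 5 members had an interval that lay wholly between -1 and 1. A p that misses the threshold therefore does not show an equal level in these libraries.

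**Figure D1:**
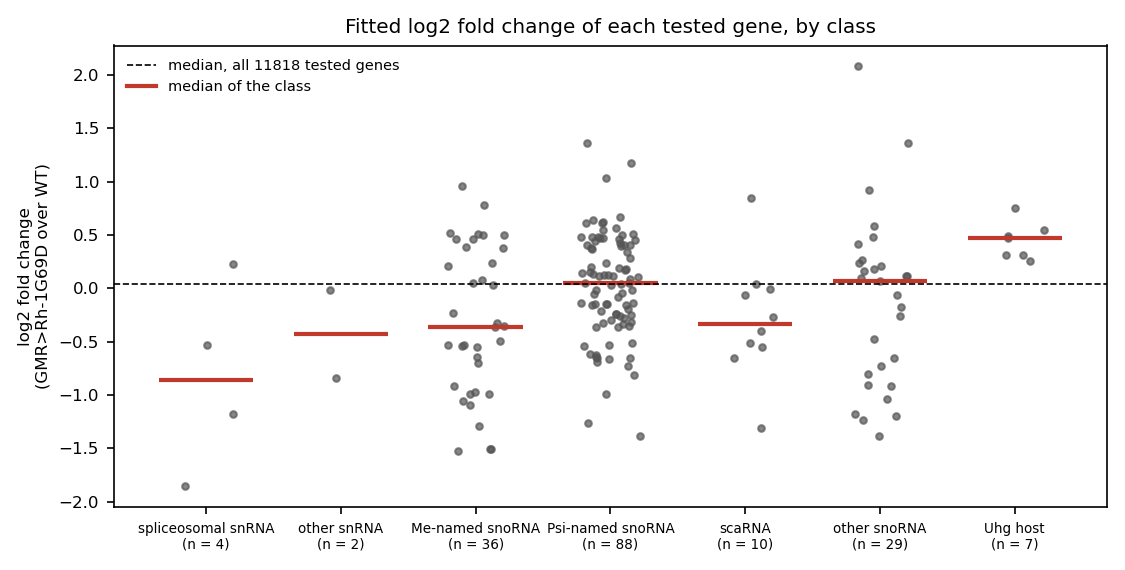
Fitted log2 fold change (GMR>Rh-1G69D over WT) of each tested gene, by class, with the class median as a red bar and the median of all 11818 tested genes as a dashed line at 0.04. The points spread widely around 0 in every class of small RNA, while the 7 Uhg genes sit between 0.26 and 0.75.

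The level of the small RNAs differed more between libraries of one genotype than between the genotype means. Summed over the 175 small RNAs, the level was 1440, 790 and 388 CPM in GMR>Rh-1G69D replicates 1, 2 and 3, against 1089, 1568 and 586 CPM in WT replicates 1, 2 and 3. GMR>Rh-1G69D replicate 1 and WT replicate 2 were high, and replicate 3 of each genotype was low, and the ranges of the genotypes overlapped. Within GMR>Rh-1G69D, replicate 1 was 3.71 times replicate 3, and within WT, replicate 2 was 2.67 times replicate 3. Of the 175 genes, 118 had their highest CPM in GMR>Rh-1G69D replicate 1 or WT replicate 2, and 97 had their lowest in replicate 3 of one of the genotypes. The ribosomal RNA share was 15.3%, 14.0% and 18.6% in the GMR>Rh-1G69D libraries and 12.1%, 7.70% and 20.5% in the WT libraries, in replicate order, so the libraries with the lowest small RNA sums had the highest ribosomal RNA shares of their genotypes. The parts of the ribosomal RNA share and of the recovery of short RNA in this were not tested.

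**Figure D2:**
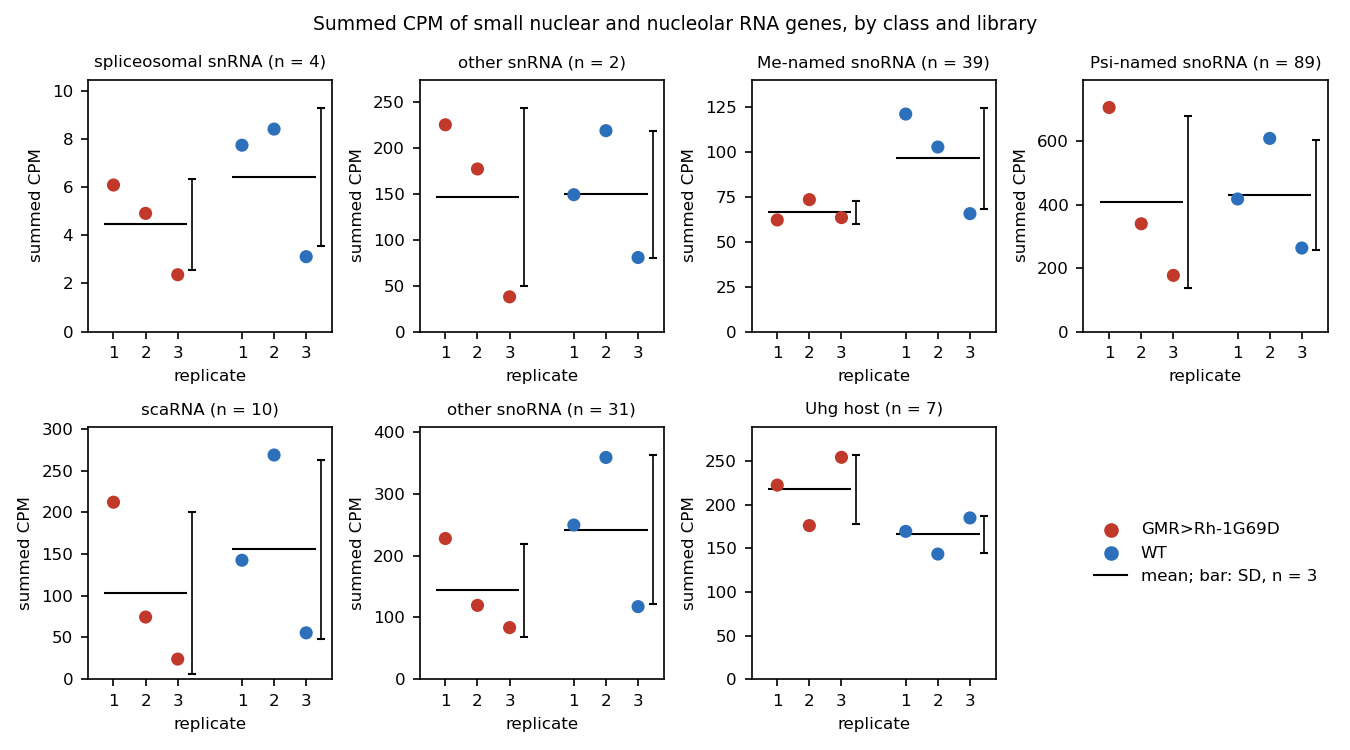
Summed CPM of the members of each class in each library (points), with the mean (line) and SD (bar) of the 3 replicates, GMR>Rh-1G69D in red and WT in blue. In the Psi-named, scaRNA and other snoRNA panels GMR>Rh-1G69D replicate 1 and WT replicate 2 are the highest of their genotypes, and the Uhg panel has its highest point in GMR>Rh-1G69D replicate 3.

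The host genes did not follow that order. On log2(CPM + 0.5), measured from each gene's own mean over the 6 libraries, the median of the 169 snoRNA and scaRNA members was 0.34, -0.14 and -0.37 in GMR>Rh-1G69D replicates 1 to 3 and 0.15, 0.27 and -0.17 in WT replicates 1 to 3. The median of their 59 hosts was 0.22, 0.05 and 0.22 in the GMR>Rh-1G69D libraries and -0.34, -0.27 and 0.09 in the WT libraries. WT replicate 2 was thus among the highest libraries for the small RNAs and among the lowest for their hosts, and GMR>Rh-1G69D replicate 3 was the lowest for the small RNAs and among the highest for the hosts.

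**Figure D3:**
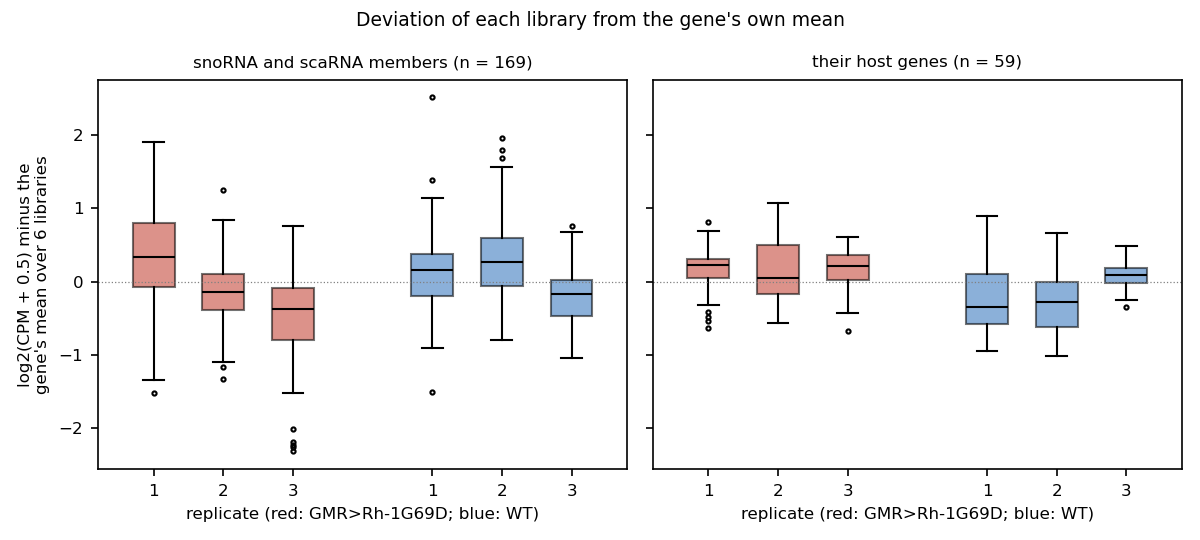
Box plots of log2(CPM + 0.5) minus the gene's mean over the 6 libraries, for 169 snoRNA and scaRNA members (left) and their 59 host genes (right), by replicate, GMR>Rh-1G69D in red and WT in blue. Boxes span the quartiles with the median as a line, whiskers reach to 1.5 times the box and points lie beyond. The small RNA medians run from 0.34 to -0.37 within GMR>Rh-1G69D, where the host medians stay between 0.05 and 0.22.

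Among the spliceosomal snRNAs, U4atac (3R:5195004-5195163, minus strand), which serves the minor spliceosome, had 2.09, 2.58 and 1.12 CPM in GMR>Rh-1G69D nuclei, against 2.29, 4.72 and 1.37 CPM in WT nuclei. U12 (3L:16653769-16654006, plus strand), the minor counterpart of U2, had 3.50, 0.92 and 0.94 CPM in GMR>Rh-1G69D, against 2.34, 1.27 and 0.99 CPM in WT. The genotypes overlapped in both, and neither passed the test (adjusted p = 0.66 for U4atac and 0.88 for U12, edgeR). The U4 gene at 38AB, whose product pairs with U6 in the major spliceosome, had 0.30, 0.53 and 0.09 CPM in GMR>Rh-1G69D, against 2.04, 1.03 and 0.31 CPM in WT, with a log2 fold change of -1.85 ± 0.98 (SE, n = 3 each) and an edgeR adjusted p of 0.27. This gene met the count minimum mainly through its WT libraries, so its log2 fold change, which enters the class median, is not free of the rule. The class median of -0.86 was -1.51 without GMR>Rh-1G69D replicate 2, -0.35 without WT replicate 2 and -0.18 over the 2 genes with at least 10 counts in every sample. The 4 genes together had 2.36 to 6.08 CPM in GMR>Rh-1G69D and 3.11 to 8.41 CPM in WT.

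7SK (3R:7474553-7474996, minus strand) was the most abundant member. It had 224, 177 and 36.1 CPM in GMR>Rh-1G69D nuclei, against 147, 217 and 79.3 CPM in WT nuclei. Its mean was 146 ± 97.7 CPM in GMR>Rh-1G69D and 147 ± 68.7 CPM in WT (SD, n = 3 each), and its log2 fold change was -0.02 ± 0.50 with a 95% interval of -1.10 to 1.06. Leaving out 1 library gave from -0.45 (without GMR>Rh-1G69D replicate 1) to 0.45 (without GMR>Rh-1G69D replicate 3). The spread within each genotype was far larger than the difference, with replicate 3 low in both. U7 (3L:3593823-3593893, plus strand) had 1.10, 0.35 and 1.76 CPM in GMR>Rh-1G69D, against 2.39, 2.06 and 1.33 CPM in WT, and these values overlapped (log2 fold change -0.84 ± 0.77, edgeR adjusted p = 0.53).

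**Figure D4:**
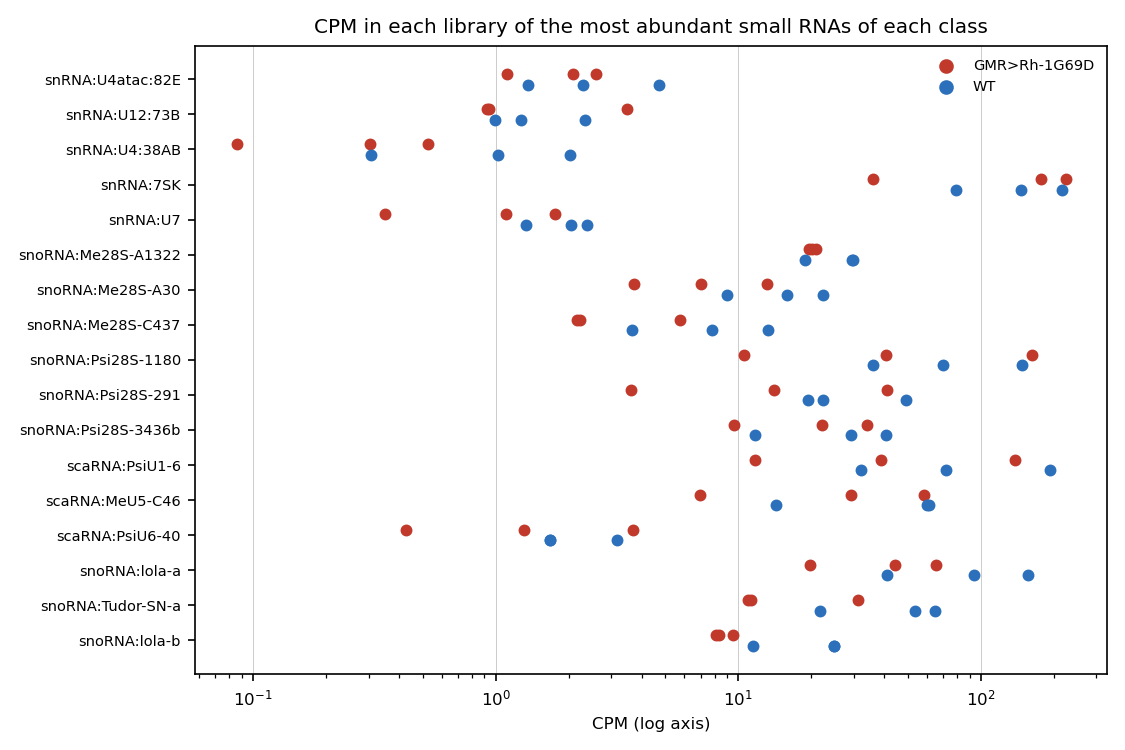
CPM on a log axis of the most abundant small RNAs of each class in each of the 3 GMR>Rh-1G69D libraries (red, upper row of each pair) and 3 WT libraries (blue, lower row). The genotypes overlap for every gene shown but snoRNA:lola-b, in which the highest GMR>Rh-1G69D library (9.57 CPM) lies below the lowest WT library (11.5 CPM).

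The sum of the scaRNAs had the widest range over the libraries of any class. It was 212, 74.4 and 24.0 CPM in GMR>Rh-1G69D, against 143, 269 and 55.5 CPM in WT, an 11.2-fold range over the 6 libraries. Per gene, the median SD within genotypes on log2(CPM + 0.5) was 0.65 for scaRNAs, beside 0.85 for the 2 other snRNAs and 0.68 for the other snoRNAs. scaRNA:PsiU1-6 (3R:9713607-9713765, plus strand), which is named for a pseudouridine of U1 and lies in an intron of dmt, a gene needed for cohesion of sister chromatids, made up much of the sum. It had 138, 38.7 and 11.7 CPM in GMR>Rh-1G69D, against 71.9, 194 and 32.0 CPM in WT (log2 fold change -0.66 ± 0.71, edgeR adjusted p = 0.60), and without WT replicate 2 its log2 fold change was 0.29. scaRNA:MeU5-C46 (3R:7472907-7473222, minus strand), in an intron of CG1142, had 58.6, 29.3 and 6.95 CPM in GMR>Rh-1G69D, against 60.0, 61.5 and 14.3 CPM in WT. Both were lowest in replicate 3 of each genotype. scaRNA:PsiU6-40, in an intron of the Mediator gene skd, had 3.69, 1.31 and 0.43 CPM in GMR>Rh-1G69D, against 1.68, 3.17 and 1.67 CPM in WT. Outside the rule for named genes, scaRNA:PsiU2-55 was singled out after its values were seen: it was the 1 scaRNA with no overlap between genotypes, at 0.57, 0.96 and 1.37 CPM in GMR>Rh-1G69D, against 2.90, 1.84 and 2.49 CPM in WT (log2 fold change -1.31 ± 0.69, edgeR adjusted p = 0.27). It lies in an intron of Prp8, a core protein of the spliceosome, whose own log2 fold change was 0.30.

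The Psi-named snoRNAs, the largest class, summed to 707, 340 and 177 CPM in GMR>Rh-1G69D, against 418, 610 and 264 CPM in WT. Their log2 fold changes had a median of 0.05, with 47 above and 41 below 0 and a range of -1.38 to 1.37. The median was 0.28 with 62 of 88 above 0 with the length correction, and -0.39 with 22 of 88 above 0 without GMR>Rh-1G69D replicate 1, so no direction can be given for this class. The most abundant was snoRNA:Psi28S-1180 (2R:11591341-11591485, minus strand), in an intron of tou, which encodes a chromatin protein. It had 163, 40.9 and 10.6 CPM in GMR>Rh-1G69D, against 70.0, 149 and 35.9 CPM in WT, so that replicates of GMR>Rh-1G69D differed by 15.4-fold while the log2 fold change between genotypes was -0.24 ± 0.71. snoRNA:Psi28S-291 (3R:11223571-11223790, plus strand), in RpL3, had 41.1, 14.1 and 3.61 CPM in GMR>Rh-1G69D, against 22.3, 49.3 and 19.3 CPM in WT. snoRNA:Psi28S-3436b (X:6742349-6742491, minus strand), in RpL17, had 33.9, 22.3 and 9.62 CPM in GMR>Rh-1G69D, against 29.2, 40.8 and 11.7 CPM in WT. All of these overlapped. Without WT replicate 2 the log2 fold change of snoRNA:Psi28S-1180 was 0.44 and that of snoRNA:Psi28S-3436b 0.11. Replicate 1 was the highest of the GMR>Rh-1G69D libraries and replicate 2 the highest of the WT libraries in each.

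The Me-named snoRNAs differed from the Psi-named ones in the order of the libraries. Their sum was 62.2, 73.6 and 63.5 CPM in GMR>Rh-1G69D, against 121, 103 and 65.7 CPM in WT, so GMR>Rh-1G69D replicate 1 was not high. The log2 fold changes had a median of -0.36, with 15 above and 21 below 0. With a correction for gene length, the median became 0.14 and 20 of the 36 lay above 0, so no direction can be given here either. snoRNA:Me28S-A1322 (2R:11893123-11893195, plus strand) sits in an intron of eEF1alpha1, a translation elongation factor gene and one of the most abundant hosts. It had 19.7, 21.0 and 20.2 CPM in GMR>Rh-1G69D, against 29.8, 29.4 and 18.9 CPM in WT (log2 fold change -0.36 ± 0.26, edgeR adjusted p = 0.42), and its log2 fold change was 0.14 with the length correction.

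snoRNA:Me28S-A30 had 3.73, 13.1 and 7.04 CPM in GMR>Rh-1G69D, against 22.5, 15.9 and 9.02 CPM in WT (log2 fold change -0.99 ± 0.46, edgeR adjusted p = 0.22). snoRNA:Me28S-C437 had 2.17, 2.23 and 5.75 CPM in GMR>Rh-1G69D, against 13.3, 7.83 and 3.66 CPM in WT (log2 fold change -1.29 ± 0.57, edgeR adjusted p = 0.19). In both, the lowest WT library lay within the GMR>Rh-1G69D values. snoRNA:Me18S-G962, chosen after its values were seen, had 2.17, 1.53 and 1.50 CPM in GMR>Rh-1G69D, against 5.45, 6.32 and 3.08 CPM in WT, with no overlap (log2 fold change -1.51 ± 0.55, edgeR adjusted p = 0.13). DESeq2 gave it an adjusted p of 0.029, and over the 19 alternatives its adjusted p ranged from 0.029 to 0.42. These 3 genes had no match in the annotation, so their hosts are not described here.

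Among the other snoRNAs, the most abundant were named for their host genes. The lola cluster lies in an intron of lola, which encodes BTB zinc finger transcription factors of nervous system development, and holds snoRNA:lola-a, -b, -c and -d within 2R:10536495-10537270 on the minus strand. snoRNA:lola-b had 8.37, 8.11 and 9.57 CPM in GMR>Rh-1G69D, against 24.8, 24.9 and 11.5 CPM in WT, and was the member with the lowest adjusted p. Its mean was 8.68 ± 0.78 CPM in GMR>Rh-1G69D and 20.4 ± 7.68 CPM in WT (SD, n = 3 each), its log2 fold change -1.23 ± 0.34 and its edgeR adjusted p 0.059. It was called lower in 5 of 19 alternatives, in which the adjusted p ranged from 0.0043 to 0.38. The lowest of these came without WT replicate 3, the WT library nearest to the GMR>Rh-1G69D values.

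snoRNA:lola-a had 65.6, 44.2 and 19.8 CPM in GMR>Rh-1G69D, against 93.8, 158 and 41.1 CPM in WT (log2 fold change -1.17 ± 0.45, edgeR adjusted p = 0.14). snoRNA:lola-c and -d were chosen after their values were seen. snoRNA:lola-c had 7.68, 2.80 and 3.43 CPM in GMR>Rh-1G69D, against 9.98, 11.4 and 4.75 CPM in WT, and snoRNA:lola-d had 7.72, 1.71 and 2.02 CPM in GMR>Rh-1G69D, against 9.26, 12.5 and 4.48 CPM in WT. In lola-c and -d the genotypes overlapped through GMR>Rh-1G69D replicate 1 and WT replicate 3. In lola-a they overlapped through GMR>Rh-1G69D replicates 1 and 2 and WT replicate 3. The 4 log2 fold changes lay between -1.23 and -0.91. lola itself had 2194, 2319 and 1921 CPM in GMR>Rh-1G69D, against 5501, 4459 and 3397 CPM in WT, with no overlap (log2 fold change -1.05 ± 0.29, edgeR adjusted p = 0.054), and it was called lower in 7 of 19 alternatives, with adjusted p from 0.00019 to 0.55. With the length correction the log2 fold change of lola was -0.23 while those of the 4 snoRNAs lay between -0.94 and -0.68. Whether mature snoRNA or unspliced lola transcript was counted cannot be told apart, and the markers of cells behind the furrow moved the same way, as given above.

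snoRNA:Tudor-SN-a (3L:259970-260280, minus strand) lies in an intron of Tudor-SN. It had 31.3, 11.3 and 10.9 CPM in GMR>Rh-1G69D, against 53.4, 65.1 and 21.7 CPM in WT, where the lowest WT library fell among the GMR>Rh-1G69D values. Its log2 fold change was -1.39 ± 0.45 with an edgeR adjusted p of 0.097, and it was called lower in 5 of 19 alternatives, with adjusted p from 0.015 to 0.30. Tudor-SN and the other snoRNA in it were chosen after their values were seen. Tudor-SN, which encodes a Tudor domain nuclease, had a log2 fold change of 0.22 ± 0.21. The other snoRNA in this gene, snoRNA:Psi18S-996, had 1.03, 0.48 and 0.09 CPM in GMR>Rh-1G69D, against 1.48, 1.06 and 0.68 CPM in WT (log2 fold change -0.99 ± 0.92).

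The members at an unadjusted p under 0.05 with a higher level were chosen after their values were seen. snoRNA:Psi18S-841a (2R:21327056-21327199, plus strand), in an intron of dom, had 7.45, 14.5 and 5.54 CPM in GMR>Rh-1G69D, against 4.78, 4.60 and 2.80 CPM in WT (log2 fold change 1.17 ± 0.46, edgeR adjusted p = 0.15). One copy of U3, the snoRNA that acts in cleavage of the ribosomal RNA precursor, snoRNA:U3:54Aa (2R:17143521-17143730, minus strand), had 4.18, 1.67 and 0.39 CPM in GMR>Rh-1G69D, against 0.25, 0.51 and 0.68 CPM in WT. Its log2 fold change of 2.08 ± 0.92 rested on GMR>Rh-1G69D replicates 1 and 2, the remaining one being within the WT range (edgeR adjusted p = 0.19). U3 has several copies, so the level of one is uncertain.

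The Uhg genes were the class with the most even direction. Counts here fall on their exons, outside the introns that hold the snoRNAs. Their sum was 223, 176 and 255 CPM in GMR>Rh-1G69D, against 170, 144 and 185 CPM in WT, and the ranges overlapped through GMR>Rh-1G69D replicate 2 and WT replicate 3. The 7 log2 fold changes were 0.26 to 0.75 with a median of 0.47, and all 7 stayed above 0 in each of the 19 alternatives, but none passed the test in any. With the length correction the median was 0.25, and Uhg1 and Uhg5 were at 0.033 and 0.048. Uhg8 had 6.73, 7.01 and 6.70 CPM in GMR>Rh-1G69D, against 4.38, 3.27 and 4.48 CPM in WT (log2 fold change 0.75 ± 0.42, edgeR adjusted p = 0.29). Uhg3 had 23.1, 20.3 and 24.7 CPM in GMR>Rh-1G69D, against 14.1, 15.1 and 19.3 CPM in WT (log2 fold change 0.49 ± 0.26, edgeR adjusted p = 0.28). These were the Uhg genes whose genotypes did not overlap.

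Uhg4 had 59.8, 39.0 and 66.8 CPM in GMR>Rh-1G69D, against 30.6, 36.7 and 46.4 CPM in WT (log2 fold change 0.54 ± 0.26, edgeR adjusted p = 0.22). Uhg2 had 47.8, 35.8 and 59.6 CPM in GMR>Rh-1G69D, against 36.0, 34.2 and 49.6 CPM in WT, and Uhg5 had 36.0, 41.0 and 55.5 CPM in GMR>Rh-1G69D, against 47.0, 29.5 and 30.3 CPM in WT. Both overlapped, with log2 fold changes of 0.26 and 0.31. Uhg1 had 36.4, 27.6 and 33.4 CPM in GMR>Rh-1G69D, against 32.9, 18.2 and 27.4 CPM in WT (log2 fold change 0.31), and Uhg7 had 12.9, 5.52 and 7.77 CPM in GMR>Rh-1G69D, against 4.63, 6.71 and 7.48 CPM in WT (log2 fold change 0.47). Uhg1, Uhg4, Uhg7 and Uhg8 overlap genes on the opposite strand, and whether the counting used strand is not given in the sources used here, so their values are less certain.

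The snoRNAs within the Uhg genes were spread on both sides of 0. Of 16 tested members in 5 Uhg hosts, 8 had log2 fold changes above 0, with a median of 0.01, and 12 lay below the value of their host. With the length correction their median was 0.36, 10 lay above 0 and 8 lay below their host. The 5 in Uhg4 summed to 25.4, 7.27 and 6.27 CPM in GMR>Rh-1G69D, against 11.4, 21.9 and 7.72 CPM in WT, and their log2 fold changes ran from -0.99 to 0.48. The 7 in Uhg5 summed to 4.03, 4.60 and 3.56 CPM in GMR>Rh-1G69D, against 5.45, 5.75 and 4.03 CPM in WT, with log2 fold changes from -1.09 to 0.50. In Uhg4 the small RNA sum was highest where GMR>Rh-1G69D replicate 1 and WT replicate 2 were, whereas the exons were highest in GMR>Rh-1G69D replicate 3.

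Where the host encodes a ribosomal protein, most snoRNAs had a smaller log2 fold change than their host. All 18 such hosts had log2 fold changes above 0, with a median of 0.78, and 1 of them (RpL36A) rose. Their 45 tested snoRNAs had a median of 0.12, with 28 above 0, and 43 of the 45 lay below the value of their own host. With the length correction the hosts had a median of 0.56 and the snoRNAs one of 0.39, and 32 of the 45 lay below their host. Without GMR>Rh-1G69D replicate 1 the snoRNAs had a median of -0.30, with 12 above 0. RpS5a had 464, 639 and 544 CPM in GMR>Rh-1G69D, against 278, 243 and 483 CPM in WT (log2 fold change 0.71 ± 0.26, edgeR adjusted p = 0.13). The 12 Psi-named snoRNAs within it summed to 86.6, 30.7 and 15.8 CPM in GMR>Rh-1G69D, against 43.9, 40.1 and 26.0 CPM in WT, so replicate 1 was high and replicate 3 low among the GMR>Rh-1G69D libraries while the host's exons were at a like level in both. RpS7, with 7 members, had a log2 fold change of 0.77 ± 0.31, and its snoRNAs ran from -0.81 to -0.05. RpS16, with 5 members, had 0.97 ± 0.30 and its snoRNAs ran from 0.04 to 0.48. RpL17, with 4 members, had 0.79 ± 0.26 and its snoRNAs ran from -0.31 to 0.08.

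Among the other hosts of 4 or more, dom, which encodes a chromatin remodeller that exchanges histone variants, held 13 members, the most of any gene. Its exons were even, at 774, 756 and 704 CPM in GMR>Rh-1G69D, against 753, 818 and 680 CPM in WT. Its 13 snoRNAs summed to 77.8, 50.4 and 25.4 CPM in GMR>Rh-1G69D, against 43.8, 59.2 and 25.8 CPM in WT. The counts on the snoRNAs thus differed 3.07-fold between GMR>Rh-1G69D replicates 1 and 3, where the exons of dom had 774 and 704 CPM. Unspliced dom transcript was not measured apart from the snoRNAs. kra, with 8 members, had a log2 fold change of 0.41 ± 0.21 and its snoRNAs ran from -0.21 to 0.47. CG10576, with 5 members, had 0.43 ± 0.22 and its snoRNAs ran from -0.15 to 0.27. Hrb98DE, which encodes an RNA-binding hnRNP protein and holds 6 members, had -0.24 ± 0.22 and its snoRNAs ran from -0.69 to 0.55. Sf3b3, a gene for a U2 snRNP protein with 4 members, had 0.03 ± 0.23 and its snoRNAs ran from -0.65 to 0.45.

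**Figure D5:**
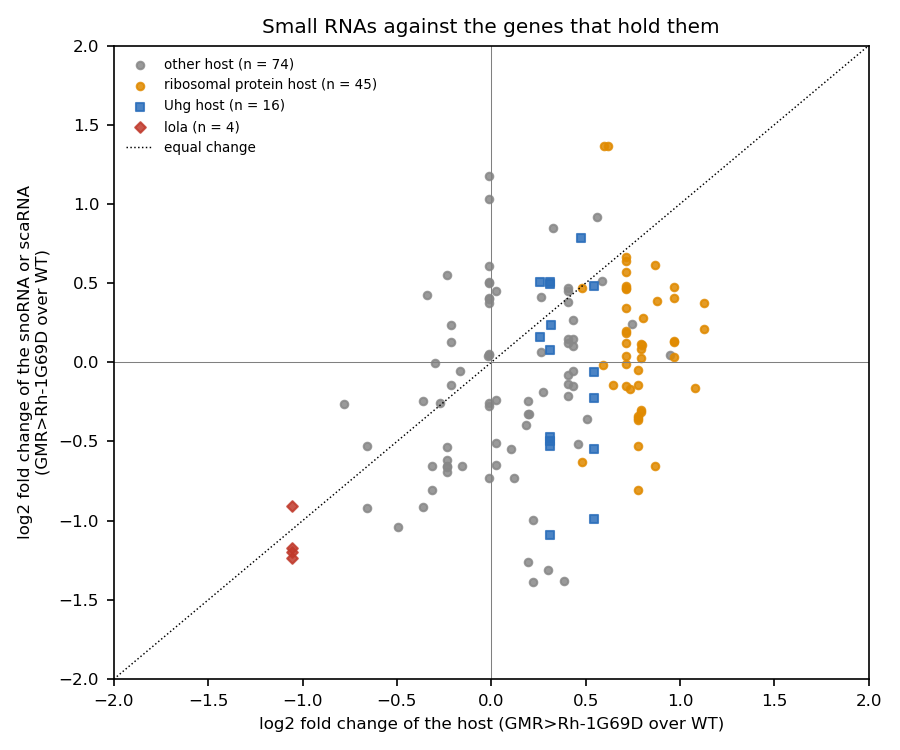
Log2 fold change (GMR>Rh-1G69D over WT) of 139 tested snoRNA and scaRNA members against that of the gene that holds them, coloured by kind of host, with the line of equal change dotted. Members in ribosomal protein hosts lie to the right of the line (43 of 45 below it), and the 4 lola snoRNAs lie at the lower left near the line.

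Across the 139 members with a tested host, the 2 log2 fold changes had a Pearson r of 0.38 and a Spearman rho of 0.32. Without the lola cluster these were 0.27 and 0.26 over 135 members. These are descriptions across genes that share libraries, and members of 1 host share its value. Of the 139, 104 had a lower log2 fold change than their host. By kind of host these were 43 of 45 (ribosomal protein), 12 of 16 (Uhg) and 49 of 78 (other). With the length correction they were 32 of 45, 8 of 16 and 47 of 78.

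The level of a member relative to its host, on deposited FPKM, which is per length, was also uneven. In 65 of 140 members it was under 0.1 of the host's exonic level, and in 10 it was above the host. Members were chosen on their own count, which also enters the ratio, so these ratios are a description. The recovery of short RNA beside longer host RNA, which enters the ratio too, was not measured. scaRNA:PsiU1-6 averaged 523 FPKM over the 6 libraries, or 39.0 times the 13.4 FPKM of dmt, and the ratio was 63.6, 24.3 and 5.16 in GMR>Rh-1G69D libraries, against 37.0, 75.1 and 14.6 in WT libraries. snoRNA:Psi28S-1180 was at 9.14 times tou, with ratios of 22.8, 4.95 and 1.39 in GMR>Rh-1G69D, against 6.33, 15.1 and 4.14 in WT. snoRNA:lola-a was at 3.31 times lola, with ratios of 4.54, 2.89 and 1.57 in GMR>Rh-1G69D, against 2.59, 5.36 and 1.84 in WT, which overlapped and again were highest in GMR>Rh-1G69D replicate 1 and WT replicate 2. snoRNA:Me28S-C788b was at 28.1 times CR45184, but that host averaged only 0.20 FPKM.

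The protein partners of these RNAs were read from lists of 60 genes, of which 56 were tested. None was called higher or lower by edgeR. At an unadjusted p under 0.05, 15 were higher and 3 lower, beside the 11.0% and 12.8% of all genes given above, and 47 of 56 had log2 fold changes above 0, with a median of 0.42 beside 0.04 over all genes. DESeq2 called 3 higher and 1 lower, where it called 3.87% of all genes higher and 7.41% lower. The 4 core proteins of box C/D snoRNPs had a median of 0.56 and the 4 of box H/ACA snoRNPs one of 0.64. The proteins given by name here and below were not picked by a rule set in advance. hoip, the box C/D protein that binds the kink-turn, had 62.1, 61.7 and 62.2 CPM in GMR>Rh-1G69D, against 23.1, 20.05 and 47.9 CPM in WT (log2 fold change 1.03 ± 0.30, edgeR adjusted p = 0.071). Fib, the methyltransferase of these particles, had 54.0, 70.1 and 55.2 CPM in GMR>Rh-1G69D, against 30.5, 39.0 and 52.1 CPM in WT, and Nop60B, the pseudouridine synthase, had 164, 119 and 140 CPM in GMR>Rh-1G69D, against 85.8, 120 and 144 CPM in WT.

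The 11 tested Sm and LSm proteins, of which the Sm proteins form a ring on snRNAs, had a median of 0.61 and all lay above 0. SmB had 70.0, 79.3 and 61.7 CPM in GMR>Rh-1G69D, against 20.1, 25.0 and 55.9 CPM in WT (log2 fold change 1.06 ± 0.33, edgeR adjusted p = 0.086). The 10 snRNP proteins had a median of 0.42, the 8 assembly and nuclear body proteins 0.37, and the 15 tested proteins of snRNA transcription and 3' processing 0.18. Among 4 tested partners of 7SK, Larp7 had a log2 fold change of 0.86 ± 0.33, while CycT, the cyclin of P-TEFb, had 201, 254 and 222 CPM in GMR>Rh-1G69D, against 461, 391 and 277 CPM in WT, with no overlap (log2 fold change -0.74 ± 0.22, edgeR adjusted p = 0.070). WT replicate 3 lay nearest to the GMR>Rh-1G69D values for hoip, SmB and CycT, and without that library 17 of these proteins were called higher and 2 lower, in a fit that called 10.7% of all genes higher and 9.82% lower.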

How the data were processed

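Nuclear RNA from 3 GMR>Rh-1G69D and 3 WT samples was sequenced as paired 50 bp reads. The authors aligned reads to dm6 with STAR 2.6.1d, counted them per gene with featureCounts (Subread 1.6.3) and used DESeq2 under R 3.6.1. The annotation release, the strand setting and the handling of multiply mapped reads are not given in the sources used here. The authors deposited raw counts per gene, counts divided by size factors (a normalized signal) and FPKM values, each for all 6 samples. Columns of the authors' own comparisons were not used.

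Raw counts were tested with edgeR 4.0.16 (R 4.3.3): TMM scaling, the default filter on low counts, a quasi-likelihood test of genotype, and Benjamini-Hochberg adjustment over all tested genes, called at an adjusted p under 0.05. CPM values are counts per 1000000 of the TMM-scaled library size. Alternatives used DESeq2 1.42.0, limma 3.58.1 on the normalized signal (pseudocount 1) and on FPKM (pseudocounts 1 and 0.1), other scalings and filters, a length correction, a replicate block, and each library left out. The length correction took from each library a smooth of its deviations on log2 gene length over all tested genes. The small RNA members entered that smooth and lie at its short end, so their corrected values are less certain. An exact permutation test of 3 against 3 samples cannot go below p = 0.1 (2-sided), so single genes were tested in the fit over all genes. The code was tested on simulated data. A host is the annotated same-strand gene that contains a member.

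The labels do not say whether the samples come from separate crosses, so p-values measure the spread between these samples. Nor do they say whether replicate numbers pair the samples. Correlations of deviations over all genes were -0.002, 0.07 and 0.16 for like numbers, and -0.12 to 0.04 for unlike numbers. With 3 samples per genotype these cannot decide it, and the main fit used no pairing. Intervals and standard errors come from the fit. Named genes were the 3 most abundant members of each class of small RNA, all Uhg genes and every host of at least 4 members. Other tested members whose difference between genotypes is given were chosen after their values were seen, and are marked. Pathway proteins given by name followed no such rule. Members, lists and rules were chosen with earlier results of these data known.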

Additional observations from a re-analysis of the deposited data

How the results depend on the processing

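No member was called higher under any of 19 alternatives, 2 of which (leaving out the libraries with the highest or lowest share of member counts) were chosen after seeing the data. Members called lower, 0 in the edgeR fit, numbered 3 with DESeq2, 1 with no filter on low counts, 1 with at least 10 counts in every sample, 1 with limma on FPKM at either pseudocount, 0 to 4 with a library left out (4 without WT replicate 3) and 3 without the libraries of lowest share. The members' median log2 fold change ranged from -0.44 (without GMR>Rh-1G69D replicate 1) to 0.12 with a library left out, and was 0.24 with the length correction. Genes called higher over the whole table, 146 in the edgeR fit, were 493 with DESeq2, 238 with limma on normalized counts, 47 and 573 without the libraries of highest and lowest share, and 54 to 1305 with a library left out. Genes called lower, 440 in the edgeR fit, were 945 with DESeq2, 233 and 210 with limma on FPKM (pseudocounts 1 and 0.1), 66 without the libraries of highest share and 127 to 1199 with a library left out. Without WT replicate 3 both counts were the highest of these. Pathway proteins called higher were 3 with DESeq2, 1 with no filter, 2 with at least 10 counts in every sample, 3 with limma on normalized counts, 1 with limma on FPKM (pseudocount 1), 7 without the libraries of lowest share and 0 to 17 with a library left out. Those called lower were 1 with DESeq2, 1 with at least 10 counts in every sample, 1 without the libraries of lowest share and 0 to 2 with a library left out. The cause of these differences was not tested.

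With the replicate block, 2 members were called lower, 4 pathway proteins higher and 253 genes higher over the whole table, and with the block and the length correction 1 member lower and 1 pathway protein higher. Whether the numbers pair the samples is not known, so these calls add nothing on pairing.

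Of 775 values of 41 named genes, 33 turned sign, none of them called. U4atac was 0.040 and U12 -0.81 without the libraries of highest share, and U12 was -0.0058 with limma on normalized counts. 7SK was 0.14 and scaRNA:PsiU6-40 0.029 without the libraries of lowest share. With the length correction, without and with the block, snoRNA:Me28S-A1322 was 0.14 and 0.11 and dom was 0.56 and 0.57. dom was 0.082 and 0.084 with limma on FPKM (pseudocounts 1 and 0.1) and 0.041 without the libraries of highest share. Sf3b3 was -0.0011 with RLE scaling, -0.019 with limma on normalized counts and -0.066 without the libraries of highest share. With a library left out, U4atac ranged from -0.86 to 0.10, U12 from -0.69 to 0.66, 7SK from -0.45 to 0.45, snoRNA:Psi28S-1180 from -1.70 to 0.44, snoRNA:Psi28S-3436b from -0.75 to 0.11, scaRNA:PsiU1-6 from -1.96 to 0.29, scaRNA:PsiU6-40 from -1.30 to 0.21, dom from -0.074 to 0.066 and Sf3b3 from -0.12 to 0.22. The 182 members had a median of 1.59 CPM, and the part of depth in the lack of calls was not tested.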

Other observations

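Of the 182 members, 6 did not pass the filter on low counts and entered no comparison. Several of them owed their counts to 1 library. snoRNA:Me18S-A1494 had 0 raw counts in each of the 3 GMR>Rh-1G69D libraries, against 71, 1 and 0 in the WT libraries. snoRNA:Me18S-G393 had 2, 6 and 0 raw counts in the GMR>Rh-1G69D libraries, against 1, 71 and 13 in the WT libraries, and snoRNA:Me28S-A3365 had 22, 0 and 5 raw counts in the GMR>Rh-1G69D libraries, against 4, 106 and 3 in the WT libraries. snoRNA:MeU2-A31, named for a methylated position of U2, had 24, 0 and 0 raw counts in the GMR>Rh-1G69D libraries, against 3, 70 and 9 in the WT libraries. These were highest in WT replicate 2 except for snoRNA:Me18S-A1494, which was highest in WT replicate 1. snoRNA:Psi28S-1936 had 17, 5 and 6 raw counts in the GMR>Rh-1G69D libraries, against 7, 18 and 9 in the WT libraries, and snoRNA:U29:54Ec had 25, 4 and 8 in the GMR>Rh-1G69D libraries, against 6, 12 and 7 in the WT libraries.

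In the deviations from the genotype means, GMR>Rh-1G69D replicate 1 and WT replicate 2 deviated together over the members (r = 0.35), as did replicate 3 of each genotype (r = 0.43), while over all tested genes the same pairs gave 0.03 and 0.16. The members share 6 libraries, so these are descriptions.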
